A study of Mus musculus with 72 samples.

Results

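SmcHD1 knockout (KO) clones D5 and G6 of the mouse XX line iXist-ChrX_Cast were followed through the first week of Xist induction and differentiation, and days 5 and 7 were compared with days 2 and 3. The libraries were chosen by their labels (clone D5 or G6, NPC culture, days 2, 3, 5 and 7), which gave 22 of the 72 libraries of the series. Where a replicate had libraries R1 and R2, both together counted as 1, so that the 22 libraries formed 16 replicates, 2 per clone and day. The comparison asks how fast, and how completely, genes on the X chromosome fell silent in cells without SmcHD1, and which genes changed over the same days in the total RNA.

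The measurement was chromatin-associated RNA sequencing (ChrRNA-seq), in which the RNA still held on chromatin, rich in nascent transcripts, is sequenced. Each group derived from interspecific F1 XX embryonic stem cells (mESCs) with 1 Mus musculus castaneus (Cast) and 1 Mus musculus domesticus (Dom) X chromosome, and all of them, KO and wild type (WT) alike, carried a doxycycline-responsive TetO promoter in front of Xist on the Cast X. That X became the inactive X (Xi), and the Dom X stayed active (Xa). D5 and G6 are single homozygous clones made with CRISPR-Cas9, so that differences between clones and effects of the mutation cannot be fully separated. The cells of days 2 to 7 were freed of feeder fibroblasts, grown on gelatin in serum-free N2B27 medium, which favours neural precursor cells (NPCs), and given 1 μg/mL doxycycline throughout. Uninduced mESCs of the same clones served as day 0 (2 libraries of D5, 1 of G6). They were maintained with serum and LIF on feeders, and the study moved mESCs to dishes without feeders before harvest. The parental WT line at the same days gave 11 replicates. Nothing in the labels says that replicates came from separate thaws or clones, so p-values measure the spread between these samples, which may be technical.

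Xist is a long noncoding RNA that coats the chromosome it is made from and, through the repressor SPEN and the Polycomb complexes, turns off most of its genes. SmcHD1 is a chromosomal protein related to the SMC family that joins the Xi late, after Polycomb marks are in place, and is known for keeping Xi genes silent and for changing how the Xi folds. A minority of X-linked genes, among them Kdm5c, Kdm6a, Ddx3x and Eif2s3x, escape silencing to some degree in most female mouse cells.

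Library totals lay between 17914084 and 30424283 fragments at days 2 to 7 and between 13211298 and 23856459 in the uninduced mESCs. Smchd1 itself (chr17:71344492-71475343 in mm10) was still transcribed in the KO clones: its level was 416 to 616 RPM (fragments of the gene per 1000000 fragments counted in genes) over the 8 replicates of days 2 and 3 (median 545) and 491 to 613 RPM over the 8 replicates of days 5 and 7 (median 575). The ranges overlapped and the change did not pass the test (log2 fold change 0.20 ± 0.0945 SE, edgeR adjusted p = 0.0753), although it did so without D5 day 7 replicate 2 or without G6 day 2 replicate 1 (adjusted p from 0.017 over the single omissions). A total count over the whole gene therefore does not show the knockout in these libraries. One feature of the libraries touches every allelic value given here. At days 3, 5 and 7 of both clones the R2 library of replicate 1 had a higher median allelic ratio than its R1 partner. The R2 medians ran from 0.0289 to 0.125 and the R1 medians from 0.0125 to 0.0583. The labels do not say whether R1 and R2 are separate time courses or repeat libraries of 1. The study's legend gives 3 replicate time courses at days 3, 5 and 7 and duplicates at day 2. These numbers match the libraries of each clone if R1 and R2 are counted as separate time courses, so that replicate 1 may join different cultures. Counting them as separate replicates gave 365 genes with a lower late ratio in place of 351, and 4844 higher and 5014 lower genes in total counts in place of 4620 and 4914. Values with R1 alone and R2 alone are given where they differ from the average.

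The allelic ratio, Xi/(Xi+Xa), is the share of a gene's allele-assigned fragments that came from the Xi, and the ratio table held 399 X-linked genes, Xist included. In D5 the median ratio over these genes was 0.128 and 0.157 in the replicates of day 2, 0.0917 and 0.0714 at day 3, 0.036 and 0.0395 at day 5, and 0.0369 and 0.025 at day 7. In G6 it was 0.102 and 0.142 at day 2, 0.0842 and 0.061 at day 3, 0.0263 and 0.0283 at day 5, and 0.0224 and 0.0257 at day 7. Each of the 8 late replicates lay below each of the 8 early ones. The median in uninduced mESCs was 0.445 and 0.447 in D5 and 0.414 in G6, so that most of the fall had taken place by day 2. Between the periods the median fell by 0.0746, by 0.0777 in D5 and by 0.0715 in G6 (exact two-sided permutation of the period within clones, p = 0.0004082, the smallest that 4900 arrangements allow).

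Over the same days Xist (chrX:103460372-103483233, minus strand) rose. Its level in D5 was 6464 and 3902 RPM at day 2, 8904 and 8576 at day 3, 13879 and 14106 at day 5, and 16192 and 14744 at day 7. In G6 it was 9414 and 7323 RPM at day 2, 11683 and 19798 at day 3, 18978 and 25335 at day 5, and 25161 and 32716 at day 7. In D5 every late replicate exceeded every early one, and in G6 the single exception was day 3 replicate 2, which lay above day 5 replicate 1. The mean log2 RPM rose by 1.15 in D5 and by 1.16 in G6 (exact two-sided permutation, p = 0.0008163 over both clones). The uninduced cells already held 322 and 154 RPM of Xist in D5 and 1009 RPM in G6.

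**Figure D1:**
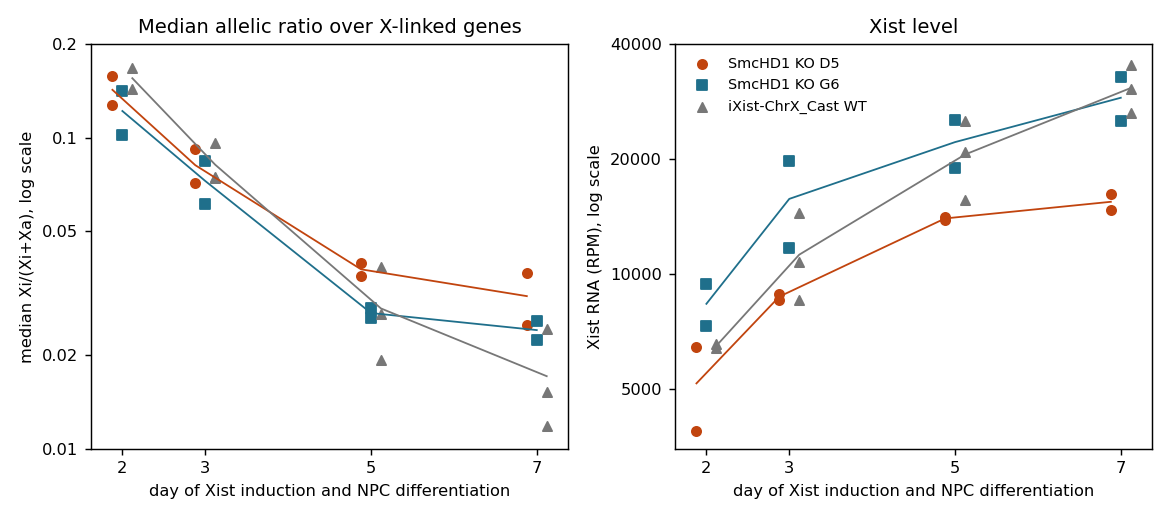
Median allelic ratio over the X-linked genes (left) and Xist level in RPM (right) at days 2, 3, 5 and 7, both on log axes. Each point is 1 replicate of D5, G6 or WT, and lines join the means of the days. The KO medians ran from 0.061 to 0.157 at days 2 and 3 and from 0.0224 to 0.0395 at days 5 and 7.

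The fall was spread over nearly the whole chromosome. Tested per gene with limma, 351 of 399 genes (88.0%) had a lower ratio at days 5 and 7 than at days 2 and 3, and 2 (0.501%) had a higher one, with a median change of -0.0718. In 163 genes (40.9%) all 8 late replicates lay below all 8 early ones. Without Xist, 376 of 398 genes had a lower mean late ratio in both clones, 33 were lower but did not pass, and 14 were higher. Of the 188 genes that were already below 0.1 at days 2 and 3, 152 fell further, and of the 210 at or above 0.1, 199 fell. In 53 genes at least 1 replicate held fewer than 20 allelic fragments, so that single ratios of these genes are coarse.

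The speed of silencing was expressed as a half-time, the days in which the ratio fitted as an exponential decay to 0 falls by 50%, with the clone's own uninduced ratio as day 0. The median over 398 genes was 1.32 days in D5 (interquartile range 0.883 to 1.88) and 1.24 days in G6 (0.869 to 1.91). Each replicate number was also fitted as 1 time course, with R1 and R2 joined in replicate 1. The medians were then 1.281 and 1.318 days in D5 and 1.184 and 1.279 days in G6. Both D5 values thus lay above both G6 values, the nearest pair by less than the spread within either clone. The parental WT line, with the uninduced ratios of D5 and G6 averaged as its day 0, gave 1.34 days (0.942 to 1.9). The choice of library moved the medians further: with R1 alone the medians were 1.24 days in D5 and 1.14 days in G6, and with R2 alone 1.41 and 1.33 days. No induced sample came before day 2, and a half-time under 1 day (138 genes in D5, 148 in G6) is drawn from the day 0 value and a ratio that was already low at day 2.

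Genes kept their order between the clones. Spearman's rho of the half-times over the 398 genes was 0.898 between D5 and G6, against 0.905 between the time courses of D5 and 0.881 between those of G6. The time courses of a clone share its uninduced ratio as day 0. These values describe genes of the same libraries, which share depth and SNP density in each fit, and genes are not independent. In 250 of 398 genes the half-time was longer in D5 than in G6. Over 4 days it was in 13 genes of each clone, and 1 gene in D5 (Tsix) and 4 in G6 (Tsix, Apool, Atp6ap1 and Slc25a5) reached the fitting limit of 100 days.

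**Figure D2:**
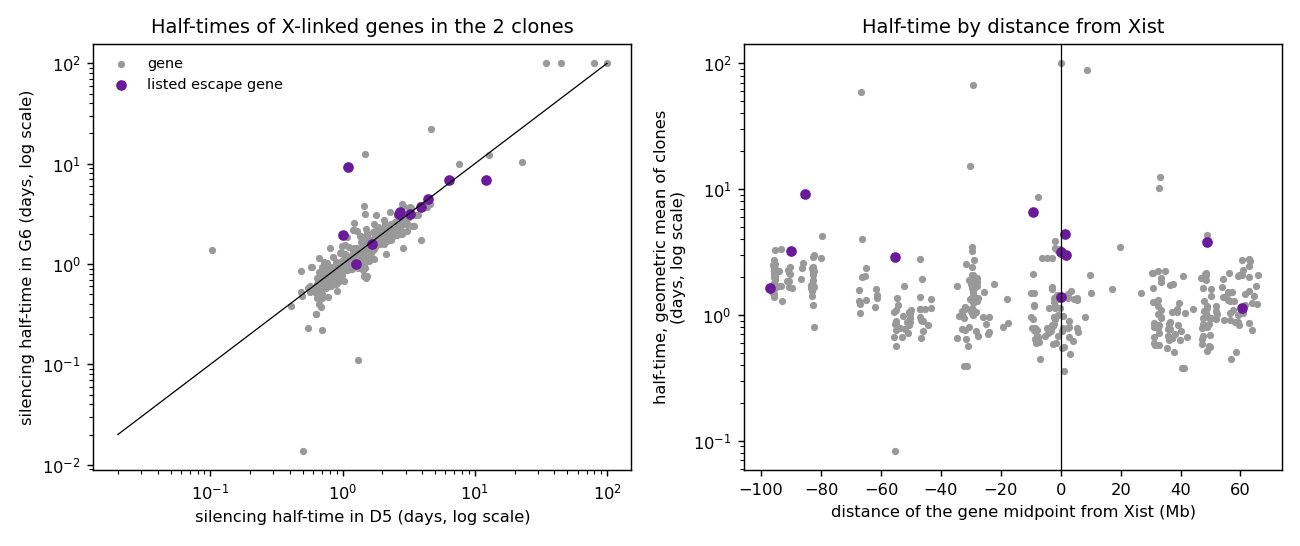
Silencing half-times of 398 X-linked genes in D5 and G6 (log axes, days), with 1 point per gene. The points follow the diagonal (Spearman's rho 0.898), with the medians at 1.32 days in D5 and 1.24 days in G6.

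Promoter sequence is shown for genes at the fast and slow ends, since the half-time differed most between them and CG-rich promoters are the usual starting points of genes that most cells use. Mamld1, which encodes a nuclear protein tied to male genital development, and Gabre, a subunit of the GABA-A receptor, were among the 6 genes with the shortest half-times. Morf4l2, a subunit of histone acetyltransferase complexes, and Eif2s3x, a subunit of a translation initiation factor, were among the 6 with the longest half-times of the genes that stayed below the fitting limit in both clones, together with Pnma5, a gene of the paraneoplastic antigen family. The half-time of Pnma5 was unstable and its ratio was already low at day 2, as given below. The 250 bases before each RefSeq start follow, read on the gene's strand (GRCm38.p6), in lower case with CG dinucleotides in capitals. They lie at chrX:71050006-71050255 (Mamld1, plus strand), chrX:72274722-72274971 (Gabre, minus), chrX:136743687-136743936 (Morf4l2, minus), chrX:94212652-94212901 (Eif2s3x, minus) and chrX:73037104-73037353 (Pnma5, minus).
Mamld1: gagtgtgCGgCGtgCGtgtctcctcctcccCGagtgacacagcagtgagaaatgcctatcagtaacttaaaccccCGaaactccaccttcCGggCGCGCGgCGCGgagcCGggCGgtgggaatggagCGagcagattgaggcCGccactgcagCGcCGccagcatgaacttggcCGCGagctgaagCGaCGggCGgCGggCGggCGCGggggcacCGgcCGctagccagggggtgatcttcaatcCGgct
Gabre: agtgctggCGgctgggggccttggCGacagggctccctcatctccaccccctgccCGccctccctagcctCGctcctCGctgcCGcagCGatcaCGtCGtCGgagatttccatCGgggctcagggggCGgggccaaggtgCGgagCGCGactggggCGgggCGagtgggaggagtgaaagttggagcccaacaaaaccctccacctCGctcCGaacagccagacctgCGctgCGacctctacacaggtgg
Morf4l2: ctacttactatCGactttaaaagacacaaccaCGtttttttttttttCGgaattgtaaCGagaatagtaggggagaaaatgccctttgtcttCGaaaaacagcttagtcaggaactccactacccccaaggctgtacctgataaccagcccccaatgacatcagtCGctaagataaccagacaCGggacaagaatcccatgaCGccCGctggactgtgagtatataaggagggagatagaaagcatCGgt
Eif2s3x: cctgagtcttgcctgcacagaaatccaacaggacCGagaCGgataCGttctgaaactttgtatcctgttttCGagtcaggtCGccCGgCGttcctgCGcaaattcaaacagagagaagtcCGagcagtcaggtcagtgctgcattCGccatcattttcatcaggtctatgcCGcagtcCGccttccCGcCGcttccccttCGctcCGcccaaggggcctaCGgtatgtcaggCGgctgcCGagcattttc
Pnma5: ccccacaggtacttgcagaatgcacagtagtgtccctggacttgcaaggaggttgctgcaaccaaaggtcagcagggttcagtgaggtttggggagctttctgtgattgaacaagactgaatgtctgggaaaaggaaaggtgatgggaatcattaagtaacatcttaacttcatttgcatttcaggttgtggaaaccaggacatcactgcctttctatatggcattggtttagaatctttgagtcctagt

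Counted in these windows, CG stood 29 times in Mamld1, 21 times in Gabre, 10 times in Morf4l2, 19 times in Eif2s3x and not at all in Pnma5. Of the other genes with the shortest half-times, Uprt and Trpc5os held 4, Capn6 held 5 and Xpnpep2 held none. Of the others with the longest, Las1l held 16, Kdm6a 15 and Bex4 5. RefSeq gave such a window for 318 of the 398 genes by symbol. The median number of CG was 10 in the 79 genes with the shortest half-times (up to 0.854 days), 15 in the 79 with the longest (from 2.01 days) and 13 over all matched genes. Mamld1 and Gabre lay well above the median of the shortest group and do not stand for it. Over all 32851 mouse promoters of the same length the median was 6, and 92.1% held the motif CG, which reads the same on both strands. The counts describe the windows and are neither a binding site nor a cause.

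At the fast end the ratios were near 0 from day 2. Mamld1 started at 0.549 in uninduced D5 and 0.557 in uninduced G6, ranged from 0 to 0.0423 at days 2 and 3 (median 0.0205) and from 0.00318 to 0.0171 at days 5 and 7 (median 0.00773), with half-times of 0.405 and 0.378 days in D5 and G6. Gabre ranged from 0 to 0.0889 early (median 0.0103) and from 0 to 0.0121 late (median 0.00162), with half-times of 0.703 and 0.22 days. Early and late replicates overlapped in both genes and neither change passed the test over all replicates (limma adjusted p = 0.158 for Mamld1 and 0.0896 for Gabre). Mamld1 passed without G6 day 3 replicate 2 (adjusted p = 0.0237), and Gabre without either G6 replicate of day 2 (adjusted p from 0.0429). The lowest replicate held 17 allelic fragments for Mamld1 and 52 for Gabre. Uprt, with at least 28 in every replicate, had half-times of 0.552 and 0.232 days. The other genes of the rule at this end, Xpnpep2, Capn6 and Trpc5os, had 12, 4 and 8 in their lowest replicate. Xpnpep2 and Capn6 were listed at a ratio of 0 in most replicates, and Capn6 was at 0 in uninduced G6 as well.

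Mamld1 RNA from the Xa allele rose from 1.7 to 7.95 RPM between the periods (log2 fold change 2.29 ± 0.185 SE, edgeR adjusted p = 2.3145e-08). The Xi allele was at 0.0307 RPM early and 0.0627 RPM late, too few fragments for a test.

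At the slow end Morf4l2 hardly moved within the week. Its ratio was 0.43 in uninduced D5 and 0.373 in uninduced G6, 0.246 to 0.371 at days 2 and 3 (median 0.309) and 0.246 to 0.316 at days 5 and 7 (median 0.26). The periods overlapped, the half-times were 12.9 days in D5 and 12.3 days in G6, and the change of -0.031 ± 0.0152 (SE) did not pass (adjusted p = 0.0657), though it passed without D5 day 2 replicate 1 or G6 day 2 replicate 1 (adjusted p from 0.0201). Eif2s3x fell more plainly, from 0.362 to 0.459 early (median 0.39) to 0.241 to 0.335 late (median 0.29), with no overlap and half-times of 6.34 and 6.91 days (adjusted p = 2.5388e-05). Las1l, a factor of ribosomal RNA processing, was 0.349 to 0.424 early and 0.308 to 0.38 late, with half-times of 7.62 and 9.85 days.

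These long half-times assume that the ratio ends at 0. With a free plateau in place of 0, Morf4l2 came to 1.49 days in each clone and Las1l to 1.26 and 0.677 days, and Eif2s3x stayed at 6.34 days in D5 and came to 1.53 days in G6. Without the day 0 point the short half-times moved instead, and Mamld1 came to 5.1 and 5.49 days. Bex4 and Pnma5 had long half-times that the clones did not share. Bex4, of the brain-expressed X-linked family, gave 4.65 days in D5 and 22.2 days in G6, and Pnma5 gave 22.9 and 10.3 days. Fitted by time course, Pnma5 gave 3.06 and 6.96 days in D5 and 16.4 and 4.00 days in G6. Bex4 gave 3.85 and 4.53 days in D5 and 4.38 and 10.1 days in G6. The ratio of Pnma5 at day 2 was already 0.0737 and 0.0608 in D5 and 0.072 and 0.0625 in G6. Uninduced it was 0.384 and 0.214, so that its long half-time does not stand for a slow fall. The fewest allelic fragments in a replicate were 18 for Bex4 and 24 for Pnma5. Pnma5 rose in ratio from a median of 0.0857 to 0.132, overlapping between periods (adjusted p = 0.08, and 0.00332 without G6 day 7 replicate 2), while both of its alleles fell in RPM (log2 fold change -1.10 for the Xi and -1.63 for the Xa).

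At day 7 the mean ratio was above 0.1, the limit that the study uses for incomplete silencing, in 46 of 398 genes in D5 and in 38 in G6. In both clones it was so in 26 genes, in D5 alone in 20 and in G6 alone in 12. The WT line had 19 such genes over its 3 replicates. Many genes lay close to the limit: 91 genes of D5 and 77 of G6 lay between 0.05 and 0.1, and 30 and 21 between 0.1 and 0.15. The 26 shared genes included Suv39h1, a histone methyltransferase of heterochromatin, at 0.119 in D5 and 0.113 in G6. Rpgr, a protein of the photoreceptor cilium, stood at 0.141 and 0.119 and its ratio fell by 0.23 between the periods. Taf1, the largest subunit of TFIID, stood at 0.173 and 0.191, and Ogt, the O-GlcNAc transferase, at 0.123 and 0.154. Their WT values are means over days 5 and 7 and not of day 7 alone: 0.105 (Suv39h1), 0.111 (Rpgr), 0.189 (Taf1) and 0.117 (Ogt). Others of the 26, such as Vma21 (0.0414) and Araf (0.0581), were below 0.1 in WT as means over days 5 and 7. The WT median over all genes was 0.0193 to 0.0385 at day 5 and 0.0118 to 0.0243 at day 7. A WT mean just above 0.1 thus does not show that the gene passed the limit at day 7.

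A few genes had a high ratio through day 7. Atp6ap1, an accessory subunit of the vacuolar proton pump, was 0.64 to 0.775 early (median 0.662) and 0.63 to 0.781 late (median 0.708), against 0.777 and 0.817 in uninduced D5 and G6. Slc25a5, a mitochondrial adenine nucleotide translocator, was 0.42 to 0.571 early (median 0.533) and 0.451 to 0.603 late (median 0.545), against 0.59 and 0.61. Apool, a component of the mitochondrial cristae complex, was 0.231 to 0.453 early (median 0.374) and 0.324 to 0.484 late (median 0.429), against 0.536 and 0.529. In all 3 genes the periods overlapped and the change did not pass (adjusted p = 0.289, 0.506 and 0.0656). For Apool it passed without D5 day 2 replicate 1, D5 day 7 replicate 2 or G6 day 5 replicate 2 (adjusted p from 0.00674). The ratios of these genes in the WT line at days 5 and 7 were 0.701, 0.516 and 0.39. Slc25a5 has processed copies in the genome, and its ratio is uncertain where reads could be shared with them.

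Tsix, the antisense partner of Xist, was 1 of the 2 genes whose ratio rose, the other being Xist. Its ratio in D5 was 0.189 and 0.118 at day 2, 0.236 and 0.145 at day 3, 0.504 and 0.402 at day 5 and 0.601 and 0.648 at day 7, and in G6 it went from 0.13 to 0.208 at days 2 and 3 to 0.383 to 0.649 at days 5 and 7. No early replicate reached a late one (change 0.36 ± 0.02 SE, limma adjusted p = 1.7991e-09). On the Xa, where Tsix is transcribed from its own promoter in mESCs, its fragments fell from 38.4 to 84.7 RPM early to 9.18 to 47 RPM late. On the Xi they rose from 6.8 to 20.1 RPM to 16.8 to 48 RPM. Tsix covers all of Xist on the opposite strand (chrX:103431516-103484957), and its Xi fragments came to between 0.137% and 0.97% of the Xist fragments of that allele in the same replicate. Whether antisense-counted Xist fragments make up the Xi signal was not tested.

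**Figure D3:**
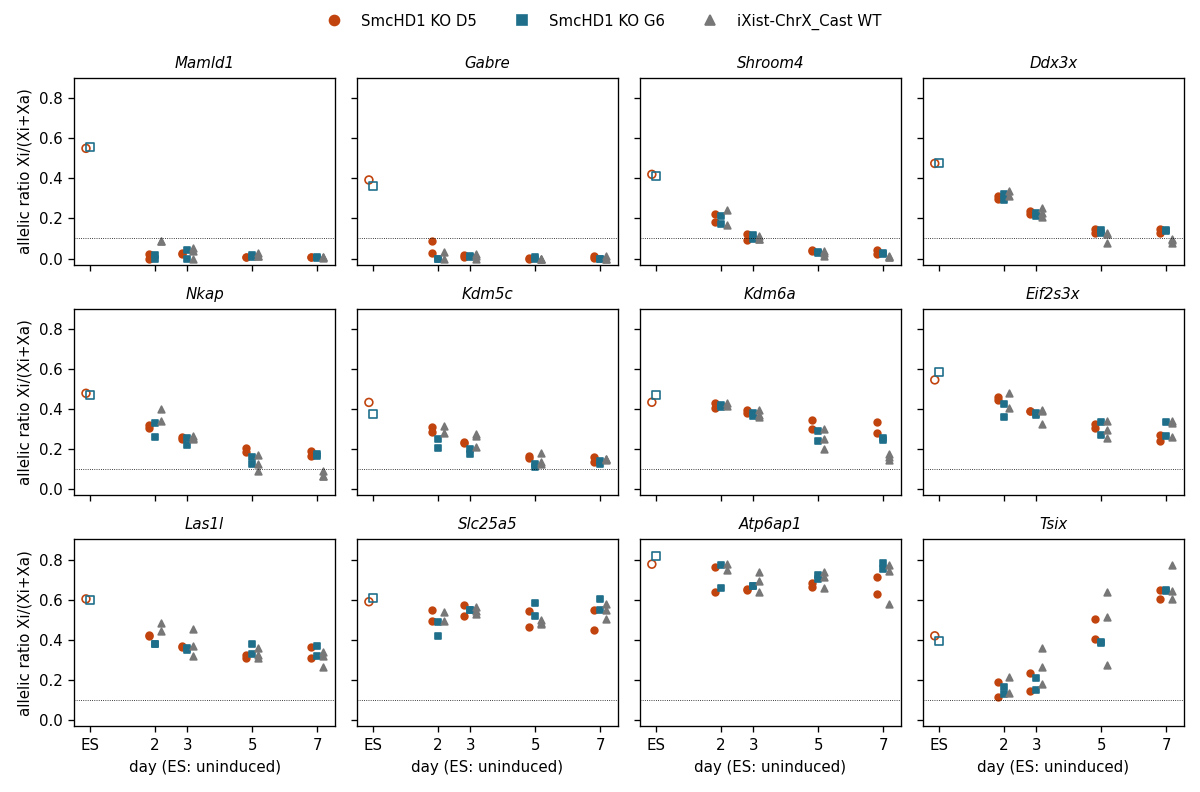
Allelic ratio by day in D5, G6 and WT for single X-linked genes, with 1 point per replicate and the uninduced mESCs of D5 and G6 as day 0. In the KO clones Mamld1 is at or below 0.0423 from day 2, Kdm6a and Eif2s3x stay above 0.23 at day 7, and Tsix rises to between 0.601 and 0.649.

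Of 13 listed genes that are known to escape X inactivation, 11 were in the ratio table, and 5 of them (Eif2s3x, Kdm5c, Kdm6a, Ddx3x and 5530601H04Rik) stood above 0.1 at day 7 in both clones. Kdm6a, a demethylase of the Polycomb histone mark, went from 0.363 to 0.429 early (median 0.401) to 0.239 to 0.346 late (median 0.285), without overlap (adjusted p = 2.7171e-06). Its half-times were 12.1 days in D5 and 6.85 days in G6. Kdm5c, a histone demethylase, fell from a median of 0.233 to 0.141, and Ddx3x, an RNA helicase, from 0.266 to 0.139, each without overlap. Means over days 5 and 7 in KO and WT were 0.286 and 0.207 for Kdm6a and 0.138 and 0.0983 for Ddx3x. They were 0.199 and 0.173 for 5530601H04Rik, 0.141 and 0.149 for Kdm5c, and 0.294 and 0.304 for Eif2s3x. For none of these genes did the change differ between KO and WT in the test (limma adjusted p from 0.128).

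The other members ended lower or were less settled. Utp14a, which takes part in making the small ribosomal subunit, fell from a median of 0.138 to 0.0918, Pbdc1 from 0.197 to 0.0897 and the actin-binding factor Shroom4 from 0.145 to 0.0306, without overlap in any of them. Shroom4, with half-times of 1.66 and 1.6 days, lay close to the median gene rather than to Kdm6a. Jpx and Ftx, the noncoding neighbours of Xist that promote its expression, did not pass (adjusted p = 0.394 and 0.81). Their ratios ran from 0.0401 to 0.369 and from 0.0131 to 0.186 at days 5 and 7, with replicate 2 above replicate 1 in each clone and on both days. Car5b, a mitochondrial carbonic anhydrase, did not pass either (adjusted p = 0.0933), except without D5 day 7 replicate 2 (adjusted p = 0.0138), and its lowest replicate held 9 allelic fragments.

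Position along the chromosome went with the half-time. The slowest stretch was the 0 to 30 Mb end, where 66 genes had a median half-time of 2.08 days in D5 and 1.95 days in G6, and 17 and 12 of them stood above 0.1 at day 7. Genes at 90 to 120 Mb, the bin that holds Xist, had 0.978 and 1.02 days (79 genes), and those at 120 to 150 Mb had 1.06 and 0.9 days (55 genes). The 150 to 180 Mb end gave 1.25 and 1.16 days (76 genes). The bins did not follow distance from Xist, since genes at 30 to 60 Mb (1.09 and 1.00 days, 52 genes) had shorter half-times than those at 60 to 90 Mb (1.37 and 1.28 days, 70 genes). The WT line had the same slowest bin (1.9 days). Groups by the level of the Xa allele, in RPM of chromatin RNA not scaled to gene length, differed less. The medians over 4 equal groups by Xa level ran from 1.28 to 1.42 days in D5 and from 1.13 to 1.26 days in G6. The study used another measure, the mRNA level in mESCs before induction, and found that genes with higher expression were silenced more slowly. That measure was not used here. Bins are descriptions over genes of the same libraries.

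The alleles were then counted separately, on the scale of all fragments of the library. Of 399 genes, 309 had enough Xi fragments to be tested, 288 of which (93.2%) fell and 2 (0.647%, Xist and Tsix) rose. Genes with few Xi fragments late passed only through their early level, so that this share is a description. On the Xa, 87 genes (21.8%) fell and 140 (35.1%) rose, with a median log2 fold change of 0.14. In the sum of both alleles and unassigned fragments, 125 of these genes rose and 127 fell, with a median of 0.03, against -0.0215 over all genes. With library totals in place of TMM factors, 108 rose and 151 fell.

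**Figure D4:**
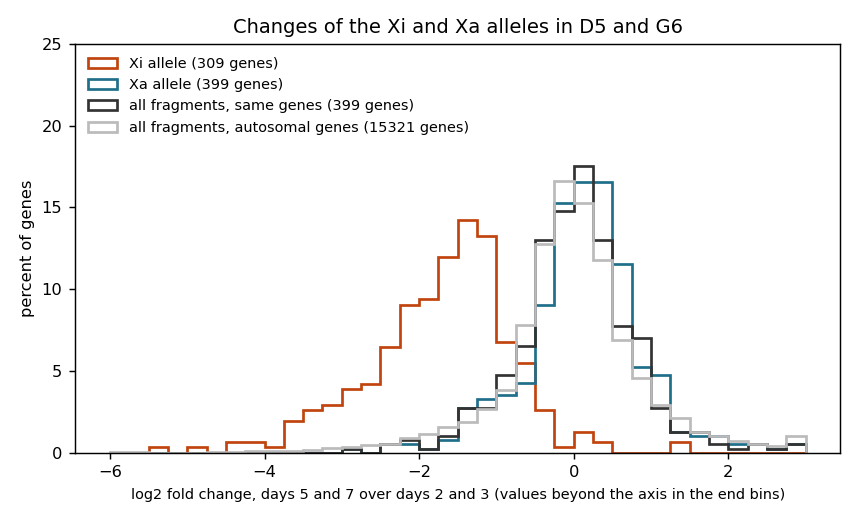
Share of genes (percent) by log2 fold change of days 5 and 7 over days 2 and 3 in D5 and G6, for the Xi allele (309 genes), the Xa allele and all fragments of the same 399 genes, and all fragments of autosomal genes. The Xi allele lies to the left of 0 for 288 falling genes, and the other distributions are centred near 0.

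The fall was then compared between clones and with WT. The change of the ratio differed between G6 and D5 in 1 of 399 genes (0.251%), Trpc5os, a transcript antisense to the channel gene Trpc5, with 22 genes at an unadjusted p below 0.05. In D5 it was 0.132 and 0.125 at day 2, 0.0278 and 0 at day 3 and 0 in all 4 late replicates, and in G6 it was 0 in all replicates except the second of day 7 (0.0357). The difference of 0.08 ± 0.0111 (SE, adjusted p = 0.0047057) rests on ratios of a gene whose lowest replicate held 8 allelic fragments. It was not called on the log2 scale or with a quasi-binomial model of the fragments. Without D5 day 2 replicate 1, 7 genes passed. Without D5 day 2 replicate 2 there were 3, and without G6 day 2 replicate 1 there were 2.

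Against WT, 362 of 399 genes (90.7%) fell in WT in the joint fit, with a median change of -0.088. The fall in the KO clones differed from that in WT in 1 gene (0.251%), and 82 genes had an unadjusted p below 0.05. That gene was Nkap (chrX:37126762-37150746), an NF-kappaB activating protein that also acts in splicing. Nkap was 0.222 to 0.329 early (median 0.262) and 0.128 to 0.205 late (median 0.172) in the KO clones, without overlap. Its ratio fell by 0.104 in the KO clones and by 0.211 in WT, where the mean went from 0.302 to 0.103 (difference 0.107 ± 0.0212 SE, adjusted p = 0.031773). The call was lost in 16 of 27 fits that left out 1 replicate, of either genotype and on every day, where the adjusted p reached 0.0878. The number of genes called went from 0 in 15 such fits to 20 without G6 day 2 replicate 2. Other fits gave 5 genes without D5 day 3 replicate 1 and 4 without WT day 2 replicate 2. The median difference in change over all genes was 0.0205, with the smaller fall in the KO clones. The KO and WT comparisons share no samples, but the cultures of the genotypes were not paired.

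In total counts, 4620 of 15910 genes (29.0%) were higher and 4914 (30.9%) lower at days 5 and 7 than at days 2 and 3 in the edgeR test, and 10155 had an unadjusted p below 0.05. In 893 genes (5.61%) all late replicates lay above all early ones, and in 1340 genes (8.42%) all lay below. The share of called genes that were higher was 48.5% and depended on the scaling: with library totals it was 38.2% and the median of all genes moved from -0.0215 to -0.137, with 3677 genes higher and 5941 lower. Fold changes of total counts are on the TMM scale unless stated. Bulk RNA cannot tell fewer cells of a type from less RNA per cell. No gene differed in its change between the clones (0 of 15910, 0%, edgeR). The count at an unadjusted p below 0.05 was 774, and DESeq2 called 22 genes (793 unadjusted). None differed between KO and WT either (0 of 16010, 0%, edgeR, 177 unadjusted), and DESeq2 also called 0 (169 unadjusted).

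Among genes of at least 5 RPM on average, the largest rise was that of Pcdh7, a protocadherin. It stood at 10.8 to 136 RPM early (median 48.8) and 842 to 2361 RPM late, without overlap (log2 fold change 5.36 ± 0.124 SE, adjusted p = 7.574e-14). T (brachyury), the T-box factor of nascent mesoderm, went from 0.391 to 3.98 RPM to 15.8 to 72.9 RPM (log2 fold change 4.95). Aldh1a2, which makes retinoic acid, went from 0.441 to 1.74 RPM to 11.2 to 33.6 RPM (4.65). The smooth muscle actin gene Acta2 (4.58), the BMP ligand Bmp5 (4.51), the metalloprotease Pappa (4.11) and the RNA-binding Rbms3 (3.96) were others of the 10 largest, and all but Pappa had periods that did not overlap. The immediate early gene Fosb (5.17) was spread widely late, from 1.25 to 65.1 RPM, and both day 7 replicate 2 libraries stood highest, at 65.1 RPM in D5 and 48.4 RPM in G6. The uninduced mESCs held 4.65 to 16.5 RPM of Fosb, within that late range.

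The 10 largest falls were shared by the clones, with no overlap of periods in any of them. Far2, a fatty acyl-CoA reductase, went from 21.6 to 49.6 RPM to 0.605 to 5.13 RPM (log2 fold change -4.15). The cadherin Cdh9 (-3.89) stood at 11 to 29.8 RPM early and 0.638 to 1.61 RPM late. Miat, a long noncoding RNA of neurons (-3.64), the calcium-binding Caln1 (-3.44) and the neurexin ligand Nxph1 (-3.43) fell as well. Far2 stood at 3.19 to 8.93 RPM in the uninduced mESCs, below each early replicate and mostly above the late ones.

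Genes of the core and primed pluripotent state fell: 12 of 14 tested fell and none rose, with a median log2 fold change of -1.13 against -0.0215 over all genes (edgeR). The shares over all genes, 29.0% higher and 30.9% lower, are the background to this count and to those of the lists that follow. Dnmt3b, a DNA methyltransferase high in the epiblast, went from 429 to 1254 RPM early (median 811) to 91.2 to 209 RPM late (median 125), without overlap (log2 fold change -2.50 ± 0.0978 SE, adjusted p = 4.0421e-11). Its uninduced level was 142 to 167 RPM, so that the early replicates stood above the mESCs and most late ones below. Pou5f1 (Oct4), the core pluripotency factor, was 44.1 to 118 RPM early (median 61.1) and 11.6 to 51.7 RPM late (median 23.4), with some overlap (-1.37, adjusted p = 7.5985e-06). Otx2 and Zic5, factors of the primed state, fell by 1.29 and 1.40 on the log2 scale without overlap.

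Of 17 naive pluripotency genes tested, 7 fell, 5 rose and 5 did not pass, with a median of -0.08. The share that rose was close to that over all genes (29.0% higher and 30.9% lower). Zfp42 (Rex1) was 31.7 to 124 RPM early (median 62.1) and 14.7 to 48.6 RPM late (median 20.9), against 237 to 396 RPM in uninduced mESCs. Its log2 fold change was -1.45 (adjusted p = 2.1019e-07), and Fgf4 (-2.20) and the mitochondrial enzyme gene Tdh (-1.73) fell with it. Nanog, in contrast, was 5.06 to 23.2 RPM early (median 12.3) and 10.4 to 35.1 RPM late (median 19.9), and the periods overlapped. The change was positive in both clones (0.80 in D5 and 0.69 in G6, joint 0.72 ± 0.139 SE, adjusted p = 0.00032088), and all 16 replicates stayed below the uninduced cells of the same clone (47.4 and 88.2 RPM in D5, 30.6 RPM in G6). Tfcp2l1 (0.83) and Klf4 (0.88) also rose from early levels far under those of the uninduced cells: Tfcp2l1 stood at 18.9 to 63 RPM early and 43.2 to 88 RPM late, against 407 to 617 RPM. The WT line had fitted changes of 0.80 for Nanog, 0.70 for Tfcp2l1 and 0.73 for Klf4. The rises of Nanog and Tfcp2l1 were called in every alternative run, whereas that of Klf4 was lost in each clone fitted alone and with R1 and R2 as separate replicates (adjusted p up to 0.108).

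Neural precursor genes rose more often than they fell: 10 of 16 tested rose, 1 fell and 5 did not pass, with a median of 0.76 (0.65 with library totals, where 8 rose), against 29.0% higher and 30.9% lower over all genes. Hes1, the Notch effector that keeps neural progenitors undifferentiated, was 2.07 to 6.19 RPM early (median 4.83) and 10.2 to 36.7 RPM late (median 20.5), without overlap (log2 fold change 2.45 ± 0.227 SE, adjusted p = 2.1019e-07). Meis2, a homeobox factor of the developing brain (2.48), and Zbtb16 (Plzf), a zinc finger factor of early neural progenitors (2.33), stood highest at day 7. Meis2 in D5 was 9.1 to 11.2 RPM at day 2 and 78.7 and 142 RPM at day 7, and in G6 18.9 and 21.3 RPM at day 2 and 268 and 187 RPM at day 7. The uninduced mESCs held 29 and 20.1 RPM of Meis2 in D5 and 51.9 RPM in G6, above each early replicate of the same clone.

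The structural genes of neural precursors moved less. Vim (vimentin) was 11.5 to 26.3 RPM early and 22 to 83.5 RPM late (1.48), and Cdh2 (N-cadherin) 57.6 to 164 RPM early and 66.8 to 547 RPM late (1.41), where D5 alone did not pass (adjusted p = 0.0838). The uninduced mESCs held 176 and 97.3 RPM of Cdh2 in D5 and 206.5 RPM in G6. Of the late D5 replicates only day 7 replicate 2 (260 RPM) stood above the uninduced D5 cells, whereas each late G6 replicate stood above uninduced G6. Nes (nestin), the intermediate filament of neural stem cells, was 17.2 to 73 RPM early (median 31) and 23.6 to 114 RPM late (median 55.5). It stood highest at day 5, with 40.5 and 114 RPM in D5 and 52.3 and 94.1 RPM in G6. At day 7 it was 23.6 and 59.9 RPM in D5 and 25.4 and 58.7 RPM in G6. These values lay below day 3 of the same replicate number, 31.5 and 73 RPM in D5 and 49.2 and 68.8 RPM in G6. Replicate 2 was above replicate 1 in each clone on each day, and the change of 0.71 ± 0.251 (SE, adjusted p = 0.023487) was lost without D5 day 5 replicate 2, D5 day 7 replicate 2, G6 day 5 replicate 2 or G6 day 7 replicate 2 (adjusted p up to 0.0627) and with library totals. The radial glia gene Fabp7 rose (1.89) but stayed at or below 1.59 RPM.

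Defining neural factors were low or not countable. Pax6, a homeobox factor of neuroectoderm, fell from 1.04 to 2.59 RPM (median 1.55) to 0.481 to 0.922 RPM (median 0.665), without overlap (-1.10, adjusted p = 0.00019643). Sox1 and Sox2 were listed at 0 fragments in all 16 replicates. Each lies within another annotated gene on the same strand, Sox1 (chr8:12395518-12399555) within Gm5607 and Sox2 (chr3:34650004-34652460) within Sox2ot, so that their 0 in these count files says nothing of their expression.

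Proneural and neuronal genes fell. Of 14 tested, 10 fell and 2 rose (Myt1 and Elavl4), with a median of -0.78. Neurod1 was 1.97 to 5.64 RPM early and 0.206 to 1.02 RPM late (-2.81), and the neuronal RNA-binding protein gene Elavl3 8.79 to 19 RPM early and 1.26 to 2.02 RPM late (-2.66), both without overlap. Tubb3, the neuronal tubulin, fell by 1.65 on the log2 scale from 3.15 to 7.14 RPM to 0.563 to 3.32 RPM. Elavl3 had been at 8.63 to 11.3 RPM in the uninduced mESCs, a range that its early level overlapped. Of 9 glial genes tested, Nfia, a gliogenic transcription factor, rose from 63.7 to 164 RPM to 272 to 502 RPM without overlap (2.06 ± 0.0704 SE). Pdgfra also passed (1.11, adjusted p = 0.042288), but not in 8 of the 16 fits that left out 1 replicate. These left out replicate 1 of day 2 or 3, or replicate 2 of day 5 or 7, in either clone (adjusted p up to 0.117). The other 7 did not pass. Gfap, S100b, Olig1, Olig2 and Sox10 were too low to be tested.

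**Figure D5:**
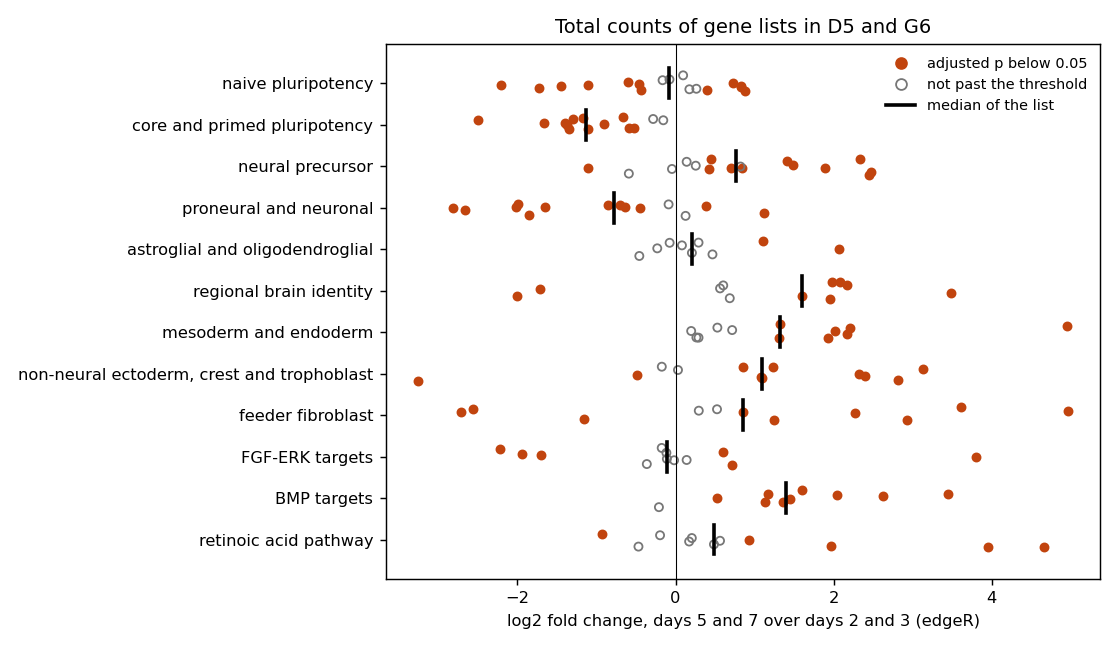
Log2 fold change of days 5 and 7 over days 2 and 3 in D5 and G6 (edgeR), with 1 point per tested gene of each list, filled where the adjusted p is below 0.05, and a bar at the list's median. Core and primed pluripotency genes centre at -1.13, neural precursor genes at 0.76 and neuronal genes at -0.78, and the mesoderm, trophoblast, fibroblast and BMP lists lie mostly above 0.

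Markers of other cell types moved over the same days, and their part in the changes above was not tested. Of 12 mesoderm and endoderm genes tested, 7 rose and none fell (median 1.32), and their summed level was 12.6 to 175 RPM early and 31.3 to 280 RPM late. Kdr, a receptor of vascular progenitors, was 0.308 to 1.92 RPM early and 0.496 to 9.38 RPM late (2.21), and Foxa2, an endoderm and floor plate factor, 0.127 to 2.17 RPM early and 0.541 to 6.86 RPM late (2.16). Both stayed under 10 RPM, and Mesp1, Hand1 and Afp were too low to be tested. Sox17 (1.32, adjusted p = 0.021244) did not pass without D5 day 5 replicate 2 or D5 day 7 replicate 2 (adjusted p up to 0.0559).

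Of 12 genes of non-neural ectoderm, neural crest and trophoblast tested, 8 rose and 2 fell (median 1.09), with a summed level of 377 to 550 RPM early and 361 to 548 RPM late, most of it the epithelial cadherin Cdh1, which fell. The simple epithelial keratins Krt8 and Krt18 rose without overlap, Krt8 from 4.33 to 21.2 RPM (median 12.8) to 46.1 to 101 RPM (median 81.2) and Krt18 from 6.51 to 18.6 RPM (median 14) to 40 to 86.1 RPM (median 58.1). Their log2 fold changes were 2.81 and 2.32. Foxd3, a stem cell and crest factor, fell from 1.68 to 5.13 RPM to 0.121 to 0.559 RPM (-3.25). Cdx2 rose (3.13) but reached 1.35 RPM at most.

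Of 11 fibroblast genes tested, 6 rose and 3 fell (median 0.85), the falls at a share close to the 30.9% of all genes, with a summed level of 48.1 to 87.5 RPM early and 65.1 to 219 RPM late. The collagen genes Col1a1 (3.60) and Col1a2 (2.93) and the matrix gene Postn (4.96) rose without overlap, Col1a1 from 0.704 to 2.06 RPM to 4.5 to 26.9 RPM. Thy1 fell from 1.38 to 4.19 RPM to 0.192 to 0.382 RPM (-2.72), and S100a4 fell as well (-2.56). Feeder cells are fibroblasts, and per the labels they were removed by pre-plating before differentiation. The uninduced cells held 0.755 to 3.79 RPM of Col1a1. They were maintained on feeders, but the study also pre-plated mESCs and moved them to dishes without feeders before harvest.

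Signalling targets moved with the period. Of 10 BMP target genes tested, 9 rose and none fell, with a median of 1.40 (1.29 with library totals, again 9). Nog, the secreted BMP antagonist, was 0.0424 to 0.5 RPM early (median 0.168) and 1.4 to 3.17 RPM late (median 1.59), without overlap (3.44 ± 0.337 SE, adjusted p = 3.786e-07). Id1 (2.62) and Id3 (1.60), inhibitors of proneural bHLH factors, rose as well. Bmp4 itself was 1.62 to 5.64 RPM early and 4.28 to 12.5 RPM late (1.44). In the uninduced mESCs it had stood at 12.8 to 18.1 RPM, above each late replicate. Id1 (1.97 to 4.43 RPM) and Id3 (3.58 to 4.54 RPM) were there within their late ranges. Nog (0.199 to 0.379 RPM) was there within its early range.

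Of 12 FGF-ERK targets tested, 3 rose, 3 fell and 6 did not pass, shares no higher than those over all genes (29.0% higher and 30.9% lower). The ETS factors Etv4 (-2.22) and Etv5 (-1.70) and the feedback inhibitor Spry4 (-1.94) fell without overlap, Etv5 from 117 to 246 RPM (median 177) to 19.5 to 86.1 RPM (median 50.3). Fos rose (3.80) with a late range of 4.5 to 130 RPM, highest in day 7 replicate 2 of both clones, the same libraries that stood highest in Fosb. The uninduced mESCs held 14.9 to 50.3 RPM of Fos, above its early range and within its late one. Of 11 retinoic acid pathway genes tested, 4 rose, close to the 29.0% of all genes, Aldh1a2 and the degrading enzyme Cyp26a1 (3.94) most, and Crabp1, which binds retinoic acid, fell (-0.94). Of 39 Hox genes, 8 were high enough for the test, and among them Hoxd3 and Hoxb3 rose and Hoxd13 fell. Hoxd3 was 0.113 to 1.92 RPM late in D5 and 0.649 to 10.5 RPM late in G6. It was 1 of the 22 genes with a clone difference in DESeq2 (adjusted p = 0.03629), as was Bmp5 (adjusted p = 0.01677), and edgeR called neither.

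Of 11 regional brain genes tested, 6 rose and 2 fell, with a median of 1.60 and a summed level of 5.58 to 9.21 RPM early and 8.41 to 58.5 RPM late. Pax3, a dorsal neural tube and crest factor, rose most (3.48), from 0.333 to 1.36 RPM early to 4.69 and 15 RPM at day 7 in D5 and 39.2 and 36.4 RPM at day 7 in G6. Irx3 and Fgf8, of hindbrain and midbrain boundary regions, rose by 2.17 and 2.08 on the log2 scale. Pax8 fell by 2.00 on that scale. The forebrain genes Emx2 and Rax were too low to be tested.

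Genes of Xist-mediated silencing were mostly flat. Of 26 tested, 5 rose, 6 fell and 15 did not pass, with a median of -0.005. With library totals 10 fell, and the median of -0.119 lay near that of all genes (-0.137). Apart from Xist, Pcgf5, a subunit of the noncanonical PRC1 complex that Xist brings in, rose most, from 37 to 60.4 RPM early (median 43.4) to 50.3 to 108 RPM late (median 87.5), with overlap (0.95 ± 0.0906 SE, adjusted p = 2.9103e-07). Jarid2, which helps to recruit PRC2, fell from 1029 to 1920 RPM to 733 to 926 RPM without overlap (-0.63), and Rybp, another PRC1 subunit, fell by 0.50 on the log2 scale. Ciz1, which anchors Xist on the chromosome, rose (0.65), as did Lrif1, the partner of SmcHD1 (0.43), from 83.1 to 142 RPM to 102 to 182 RPM. None of the lists held a gene whose change differed between the clones or between KO and WT in the edgeR test.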

How the data were processed

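ChrRNA-seq count files and the ratio table were used as deposited. The authors aligned read pairs with STAR (2.4.2a) to a SNP-masked mm10 genome after removing ribosomal reads with Bowtie2 (2.3.2), used SNPsplit to separate the alleles, and assigned fragments to 22556 genes by strand-aware featureCounts (1.5.2), giving counts. The authors' allelic ratio is a fraction, Xi/(Xi+Xa), kept for genes with at least 10 allelic fragments in 80% of WT samples and an uninduced ratio of 0.1 to 0.9. Its 14364 values used here equalled the count ratios to within 4.996e-16, and 10 further per-sample columns were not used. Counts of R1 and R2 were summed and their ratios averaged. RPM is fragments per 1000000 fragments counted in genes.

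Ratios were fitted with limma (3.58.1, lmFit and eBayes with trend), and counts by the quasi-likelihood test of edgeR (4.0.16, filterByExpr, TMM factors). Both had clone and day as factors and contrasted the mean of days 5 and 7 with that of days 2 and 3. Differences between clones or genotypes, and changes of WT or of 1 clone in the joint fit, used clone and day cells. P-values were adjusted by Benjamini-Hochberg over all genes tested, with a threshold of 0.05, and fits were tested on simulated data. DESeq2 (1.42.0) was an alternative. Half-times were fitted with nlsLM (minpack.lm 1.2.4) to 0 with a free start and a limit of 100 days. Named X-linked genes are the 6 shortest and 6 longest half-times (fits below the 100 day limit in both clones and a median of at least 20 allelic fragments), the 6 highest day 7 ratios, listed escape genes and called interactions. Named genes in total counts are the 10 largest rises and falls of at least 5 RPM with the same direction in all 4 time courses, and up to 6 members per list by size of change, with a few fixed markers. The remaining genes named were chosen after their values were seen. Some genes of the lists are not reported here by name. The members and gene lists were chosen with earlier results of these data known. Depth limits ratios of genes with few allelic fragments, and PCR duplicates make counting intervals too narrow. Promoters came from RefSeq on GRCm38.p6.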

Additional observations from a re-analysis of the deposited data

Results flagged for a closer look

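Trpc5os differed between the clones in the change of its allelic ratio, tested as an interaction of clone with period (G6 minus D5 0.080018, limma adjusted p = 0.0047057). Over the 16 fits that left out 1 replicate the difference ran from 0.0711 to 0.0889 and stayed called (adjusted p up to 0.0255). It was not called with R1 alone, on the log2 scale or in the quasi-binomial model.

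Nkap differed between KO and WT in the change of its allelic ratio, tested as an interaction of genotype with period (KO minus WT 0.10686, limma adjusted p = 0.031773). Over the 27 fits that left out 1 replicate the difference ran from 0.0926 to 0.121 and the adjusted p from 0.0064 to 0.0878, with the call lost in 16.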

How the results depend on the processing

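No direction that passed the test, in the given fit or the alternative, reversed under any alternative run. Changes that passed in neither turned in sign or came to 0 for 7 genes named in ratio and 3 named in total counts. The counts of genes that fell or rose in ratio, in either allele and in total counts kept within 1.5 times of the values given, except that total counts gave 2545 higher and 2700 lower genes in D5 alone and 3020 and 3256 in G6 alone, where fewer samples were fitted. Without 1 replicate, the genes with a lower ratio numbered 344 to 361, and total counts gave 4352 to 4699 higher and 4686 to 5013 lower genes.

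The genes differing between clones in ratio were 0 with R1 only, on the log2 scale, with at least 20 allelic fragments in every replicate and in the quasi-binomial model, and 1 to 7 without 1 replicate. Those differing between KO and WT were 0 with R1 and R2 as separate replicates, 2 with R1 only, 0 with R2 only, 7 on the log2 scale, 2 with at least 20 fragments, 6 in the quasi-binomial model and 0 to 20 without 1 replicate. In total counts the clone difference was 22 genes in DESeq2 and 0 to 1 without 1 replicate, with 1 gene without G6 day 7 replicate 2.

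The median half-time in D5 was 1.82 days without the day 0 point, 1.09 with a free plateau, 1.24 with R1 only, 1.41 with R2 only and 1.38 with at least 20 fragments, and 1.28 to 1.38 without 1 replicate. In G6 it was 1.80 days without the day 0 point, 1.01 with a free plateau, 1.14 with R1 only, 1.33 with R2 only and 1.20 to 1.31 without 1 replicate. The cause of these shifts was not tested.

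Pairing by replicate number stayed unsettled: the differences between replicates 1 and 2 correlated between days by 0.157 to 0.531 in D5 and by -0.00711 to 0.449 in G6 in total counts, where pairing was to be taken as given only if every value passed 0.1. With a replicate block, 355 genes fell in ratio, 5133 rose and 5420 fell in total counts, and 2 genes differed between KO and WT in ratio. The block moved no other count given by over 1.5 times. Of 111 genes named in total counts, 8 changed their call without some single replicate, in fits that hold no block. With the block 6 of these 8 passed, among them Nes (adjusted p = 0.000157), Pdgfra (adjusted p = 1.523e-06), Sox17 (adjusted p = 1.098e-05) and Smchd1 (adjusted p = 0.0138, edgeR). Depth limits low ratios most, since 53 genes had fewer than 20 allelic fragments in some replicate.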
